A study of Mus musculus with 7 samples.

Results

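Dntt, Rag2, Cd3d and Lat are genes that developing lymphocytes use to build an antigen receptor and to signal through it. Ly6d is a marker of early lymphoid cells. The 5 genes were chosen by name. All were among the 9294 genes measured by a probe with 1 gene symbol, each by 1 probe. Gene expression had been measured on Affymetrix microarrays in total RNA from the paracardial fat (the depot beside the heart, labelled pCF) and the intra-abdominal fat (labelled iVF) of wild-type male mice of the strain given as C57. There were 4 paracardial and 3 intra-abdominal arrays, and no group carried a transgene, deletion or treatment. The samples are labelled biological replicates, but the labels give neither the age of the mice nor whether a sample was 1 animal or a pool, so the p-values refer only to how far these samples spread, which may be technical.

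During lymphocyte development the recombinase made of RAG1 and RAG2 cuts antigen receptor genes at their segments, and the polymerase TdT, encoded by Dntt, adds nucleotides at the joints before they are sealed. Both steps are normally active in immature lymphocytes of the thymus and bone marrow and are shut down in mature T cells. The assembled T cell receptor reaches the surface together with the CD3 chains. After the receptor is engaged the kinase LCK activates the kinase ZAP-70, which phosphorylates the adaptor LAT. LAT gathers the enzymes of the downstream response. These signalling genes stay on in mature T cells. Ly6d encodes a small membrane-anchored surface protein of the Ly6 family that marks lymphoid progenitors, is carried by some thymocytes and B cells, and is also made in stratified epithelia.

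The sequences before the transcription starts are shown for the 4 members that matched the RefSeq promoter table by symbol (build GRCm38.p6), without Ly6d. Each window ends at the base before the outermost RefSeq start of the gene and runs 5′ to 3′ on the gene's strand. Capitals mark matches on either strand to short motifs of factors that act in lymphocytes. For the E proteins the motif searched was CANNTG, where N is any base. For the RUNX factors it was TGTGGT. For the zinc finger factor Ikaros it was TGGGAA. For the factors TCF1 and LEF1 it was CTTTGA. For the GATA factors it was AGATAA.
Dntt, chr19:41029025-41029274, plus strand: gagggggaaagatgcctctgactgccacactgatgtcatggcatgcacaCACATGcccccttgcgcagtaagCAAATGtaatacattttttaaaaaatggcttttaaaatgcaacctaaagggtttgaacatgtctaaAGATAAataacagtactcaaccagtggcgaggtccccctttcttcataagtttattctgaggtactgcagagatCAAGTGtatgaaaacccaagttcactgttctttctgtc
Rag2, chr2:101624462-101624711, plus strand: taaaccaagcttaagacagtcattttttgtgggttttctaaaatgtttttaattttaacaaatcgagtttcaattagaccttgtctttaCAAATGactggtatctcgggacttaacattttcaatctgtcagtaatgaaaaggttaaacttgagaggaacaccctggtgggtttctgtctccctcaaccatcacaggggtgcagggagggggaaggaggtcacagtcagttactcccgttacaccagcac
Cd3d, chr9:44981536-44981768, plus strand: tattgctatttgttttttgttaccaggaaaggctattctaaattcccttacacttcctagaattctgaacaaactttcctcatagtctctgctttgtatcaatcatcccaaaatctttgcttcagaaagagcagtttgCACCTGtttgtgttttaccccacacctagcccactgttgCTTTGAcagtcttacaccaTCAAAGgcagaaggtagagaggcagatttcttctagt
Lat, chr7:126369706-126369818, minus strand: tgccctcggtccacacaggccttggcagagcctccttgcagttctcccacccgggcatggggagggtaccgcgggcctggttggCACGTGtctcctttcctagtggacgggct

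The motif CANNTG was found 3 times before Dntt and 1 time each before Rag2, Cd3d and Lat. It is a common motif, held by 66.2% of all 32851 RefSeq promoter windows cut to the 250 bases used for Dntt and Rag2, by 63.9% of those cut to the 233 bases used for Cd3d and by 39.9% of those cut to the 113 bases used for Lat. CTTTGA was matched 2 times before Cd3d, against 13.2% of windows of that length with at least 1 match. AGATAA was matched 1 time before Dntt, against 9.99% of windows. No match to TGTGGT or TGGGAA lay in the 4 windows. No matches of different motifs overlapped, and a match describes the letters only.

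All values are on the deposited log2 scale, where a difference of 1 would be a doubling if the scale were calibrated. The median gene lay between 5.96 and 6.46 on each array, the highest values piled up between 19.81 and 19.93, and the highest of these ceilings was common to paracardial array 4 and intra-abdominal array 3. None of the 5 genes reached it on any array. The question was which genes differ between the fat depots. At an adjusted p under 0.05 (limma, Benjamini-Hochberg over the 9294 genes) 6.25% of the table was higher in paracardial fat and 2.91% lower. In 18.0% of genes every paracardial array lay above every intra-abdominal array, and in 8.78% every one lay below. An unadjusted limma p under 0.05, in either direction, was reached by 24.4% of genes. All 5 members were higher by both measures. They had been put together with such results known, so this count describes them and is not separate support. In tissue RNA, fewer cells of a type and less RNA per cell cannot be told apart. The thymus lies above the heart, beside the paracardial depot, and the labels do not say whether the paracardial samples held thymus tissue. The mean level of 12 thymic epithelial markers put the 7 arrays in the same order as the members did, from 10.42 on paracardial array 4 to 6.12 on intra-abdominal array 3. Not every single marker kept that order. The part of thymus tissue in the differences was not tested, and this holds for every gene given as higher in paracardial fat.

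Dntt, the polymerase that adds nucleotides at receptor joints, had the largest positive difference of all 9294 genes. Paracardial arrays 1 to 4 gave log2 values of 15.43, 14.70, 16.33 and 17.91, against 12.42, 8.32 and 6.37 on the intra-abdominal arrays 1 to 3. The paracardial arrays spread less than the intra-abdominal ones. Intra-abdominal array 1 lay nearer to the lowest paracardial array than to the other intra-abdominal arrays. The means were 16.09 ± 1.38 (SD, n = 4) and 9.04 ± 3.09 (SD, n = 3), and the difference was 7.05 ± 1.48 (SE), with a 95% interval from 3.52 to 10.59 (limma adjusted p = 0.034). The depots did not overlap, with a gap of 2.27 between the lowest paracardial and the highest intra-abdominal value. The gap was smaller than the range within either depot, which was 3.21 in paracardial and 6.05 in intra-abdominal fat.

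Rag2, the partner of RAG1 in the recombinase, was higher in paracardial fat with the smallest adjusted p of the 5. It read 9.71, 9.36, 11.04 and 11.55 (log2) on the paracardial arrays in number order, and 7.34, 5.36 and 4.59 on the intra-abdominal ones. On intra-abdominal arrays 2 and 3 it lay 0.60 and 1.46 below the array's median gene, and on array 1 it lay 1.25 above it. The difference was 4.65 ± 0.81 (SE), with a 95% interval from 2.71 to 6.59 (limma adjusted p = 0.021), between means of 10.41 ± 1.05 (SD, n = 4) and 5.76 ± 1.42 (SD, n = 3). The depots were apart by 2.02.

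Cd3d, a signalling chain of the T cell receptor complex, was higher in paracardial fat but stood closest to the threshold. The 4 paracardial arrays gave 9.03, 8.75, 10.17 and 11.95 in number order and the 3 intra-abdominal arrays 7.55, 5.35 and 4.74. Paracardial array 4 was the highest and intra-abdominal array 1 the highest of its depot, and the gap between the depots, 1.21, was the smallest of the 5 genes. The difference was 4.09 ± 0.98 (SE), with a 95% interval from 1.76 to 6.43 (limma adjusted p = 0.0497), between means of 9.98 ± 1.45 (SD, n = 4) and 5.88 ± 1.48 (SD, n = 3).

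Lat, the adaptor that links the engaged receptor to its downstream enzymes, followed Cd3d closely. On the log2 scale the paracardial arrays, in number order, read 10.36, 10.17, 11.12 and 12.97, while the intra-abdominal ones read 8.71, 6.79 and 5.89. The depots did not overlap, and again paracardial array 4 and intra-abdominal array 1 were the highest of their depots. The difference was 4.03 ± 0.90 (SE), with a 95% interval from 1.87 to 6.18 (limma adjusted p = 0.041), between means of 11.16 ± 1.28 (SD, n = 4) and 7.13 ± 1.44 (SD, n = 3).

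Ly6d, the surface protein of lymphoid progenitors and stratified epithelia, was higher in paracardial fat by a like amount. Paracardial arrays 1 to 4 gave log2 values of 10.23, 9.25, 10.90 and 12.97, against 7.46, 6.15 and 5.90 on the intra-abdominal arrays 1 to 3. It was the member that varied most among the paracardial arrays, with a range of 3.72, and least among the intra-abdominal arrays, with a range of 1.56. The difference was 4.34 ± 0.89 (SE), with a 95% interval from 2.21 to 6.47 (limma adjusted p = 0.032), between means of 10.84 ± 1.58 (SD, n = 4) and 6.50 ± 0.84 (SD, n = 3). Ranked by difference among all 9294 genes, Dntt was followed by Rag2 at 40, Ly6d at 57, Cd3d at 83 and Lat at 95. A two-sided exact permutation test over the 35 splits of the arrays gave p = 0.0286 for each of the 5 genes, the lowest p possible with 4 against 3 arrays. This p follows largely from the lack of overlap between the depots. Such a lack was found upward in 18.0% and downward in 8.78% of all genes, so the p is not separate support.

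**Figure D1:**
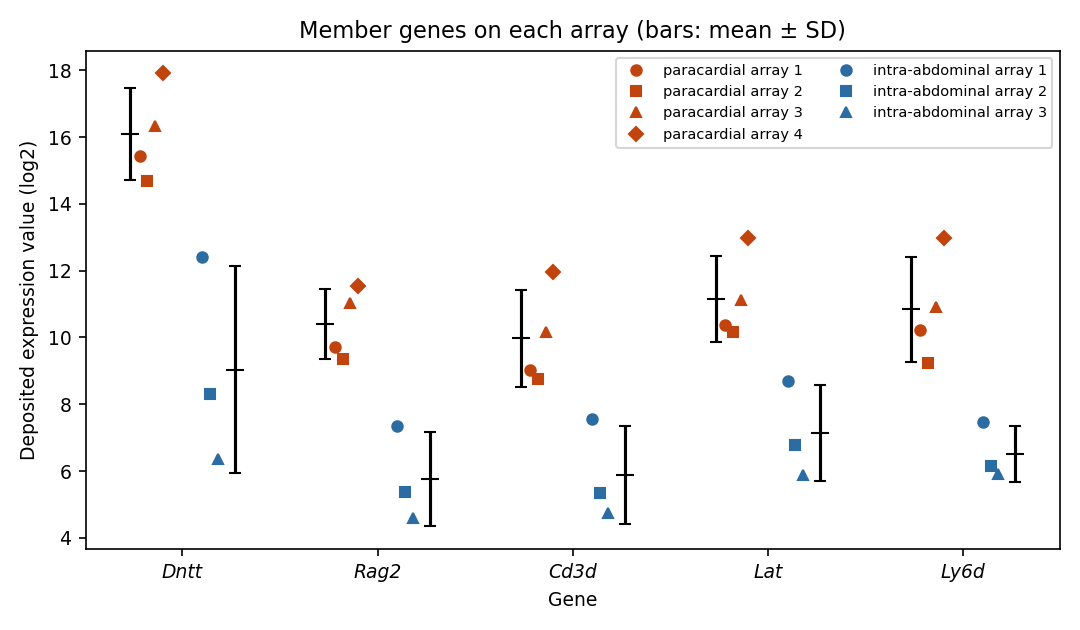
Deposited log2 value of each member gene on every paracardial (orange) and intra-abdominal (blue) array, with symbols for the array number and black bars for the mean and SD of each depot. In all 5 genes the paracardial arrays lie above the intra-abdominal arrays, and intra-abdominal array 1 is the highest of its depot, at 12.42 for Dntt.

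The calls depended on single arrays, although no paracardial array fell into the intra-abdominal range for any member. Without paracardial array 1, without paracardial array 3 or without intra-abdominal array 2 none of the 5 genes passed, with limma adjusted p from 0.060 to 0.093, from 0.059 to 0.115 and from 0.089 to 0.173. Without intra-abdominal array 1 all 5 passed, and Dntt, Cd3d and Lat passed in this fit alone of the 7 with an array dropped. Rag2 passed in 4 of the 7, also without paracardial array 2, paracardial array 4 or intra-abdominal array 3. Ly6d passed in 3, also without paracardial array 2 or 4. The number of called genes over the whole table moved with the same arrays, from 581 higher genes to 134, 255 or 266 when paracardial array 1, 2 or 3 was dropped and to 114 when intra-abdominal array 2 was.

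The size of each difference depended on which arrays were set against each other. Between paracardial array 4 and intra-abdominal array 3, which shared the highest ceiling, the differences were 11.54 for Dntt, 6.96 for Rag2, 7.21 for Cd3d, 7.09 for Lat and 7.07 for Ly6d. Over the other 5 arrays they were 5.12, 3.69, 2.87, 2.80 and 3.32 in the same order. All 5 genes were thus higher in paracardial fat within both sets of arrays, by more in the pair that holds the highest paracardial and the lowest intra-abdominal value of each gene. Over the 5 arrays alone none passed, with limma adjusted p from 0.056 for Ly6d to 0.115 for Cd3d, nor did any without paracardial arrays 1 and 2 (0.097 to 0.141), both settings chosen after the values were seen.

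**Figure D2:**
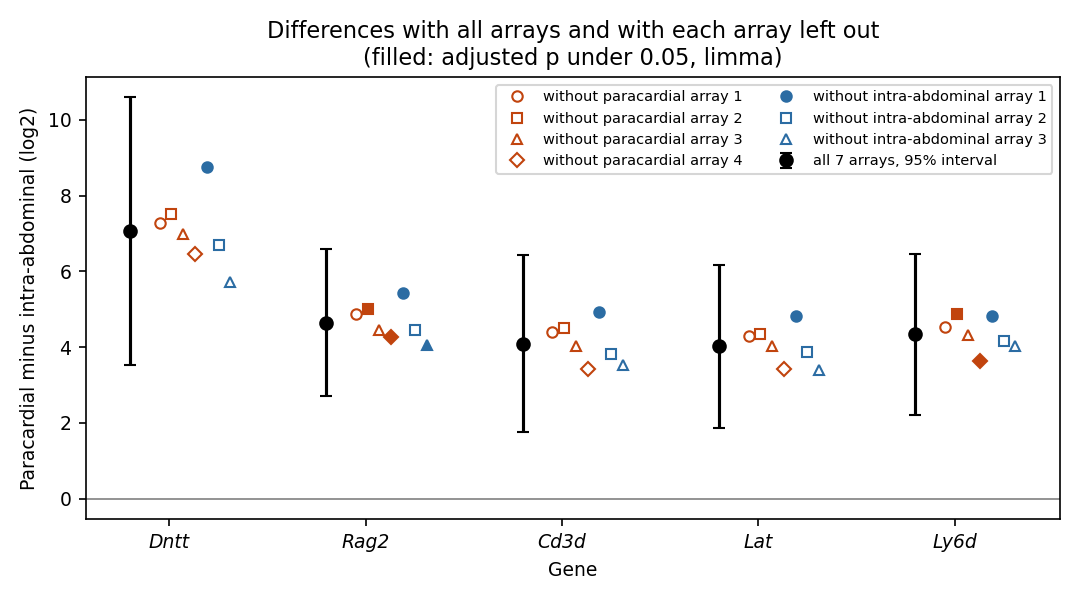
Paracardial minus intra-abdominal difference (log2) of each member gene with all 7 arrays (black, 95% confidence interval) and with each array left out in turn (orange for a paracardial, blue for an intra-abdominal array; filled where the limma adjusted p was under 0.05). The lowest difference of any gene in the 7 fits is 3.41, and the fit without intra-abdominal array 1 is the only one in which all 5 genes are past the threshold.

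The 5 genes ranked the 7 arrays alike. From the highest to the lowest value each gave paracardial arrays 4, 3, 1 and 2 and then intra-abdominal arrays 1, 2 and 3. Of all genes 111, or 1.19%, had this order, among them the 5. The order within the paracardial arrays alone was shared by 16.1% of all genes and that within the intra-abdominal arrays by 25.9%. Pearson's r between 2 members over the 7 arrays ran from 0.952 (Dntt and Ly6d) to 0.998 (Cd3d and Lat), a description in which the gap between the depots carries much of the value. The members thus differed among arrays of the same depot in a common order, beside the difference between depots.

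The difference of Dntt was the largest of the 5, and its ratios to the other members were compared between the depots. Each shift in ratio is the difference of Dntt minus that of the other member, so all were bound to be positive. The p-values below describe how far the ratios separate and are not separate support. Set against another member on the same array, the log2 ratio of Dntt to Rag2 was 5.68 ± 0.49 (SD, n = 4) in paracardial and 3.27 ± 1.68 (SD, n = 3) in intra-abdominal fat, so that the ratio differed by 2.41. The shift was 2.96 against Cd3d and 3.03 against Lat, and in these 3 pairs the ratios of the depots did not overlap. Each gave p = 0.0286 in a two-sided exact permutation test, the smallest possible, and 0.095 after Benjamini-Hochberg adjustment over the 10 pairs. Had all 4 pairs with Dntt and no other pair separated, the adjusted p would still have been 0.071, so at this size the adjusted test could not pass for Dntt alone. Against Ly6d the shift was 2.72, with overlapping depots (exact p = 0.057, adjusted 0.143).

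Among the other 4 members no pair shifted by more than 0.62, and all 6 of their ratios overlapped between the depots (exact permutation p from 0.114 to 0.686, adjusted over the 10 pairs 0.229 to 0.686). Cd3d and Lat were the closest pair. The log2 ratio of Cd3d to Lat on the paracardial arrays, in number order, came to -1.33, -1.41, -0.96 and -1.03, against -1.16, -1.44 and -1.15 on the intra-abdominal ones, a shift of 0.067. With 4 arrays against 3 these tests cannot show that 2 genes moved alike. On intra-abdominal arrays 2 and 3 Rag2 and Cd3d lay below the median gene, and on array 3 Lat and Ly6d did so too. Dntt lay above it by 2.35 on array 2 and by only 0.32 on array 3. Signal over background is unknown, so a floor under the lower genes and a larger change of Dntt cannot be told apart in these ratios.

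**Figure D3:**
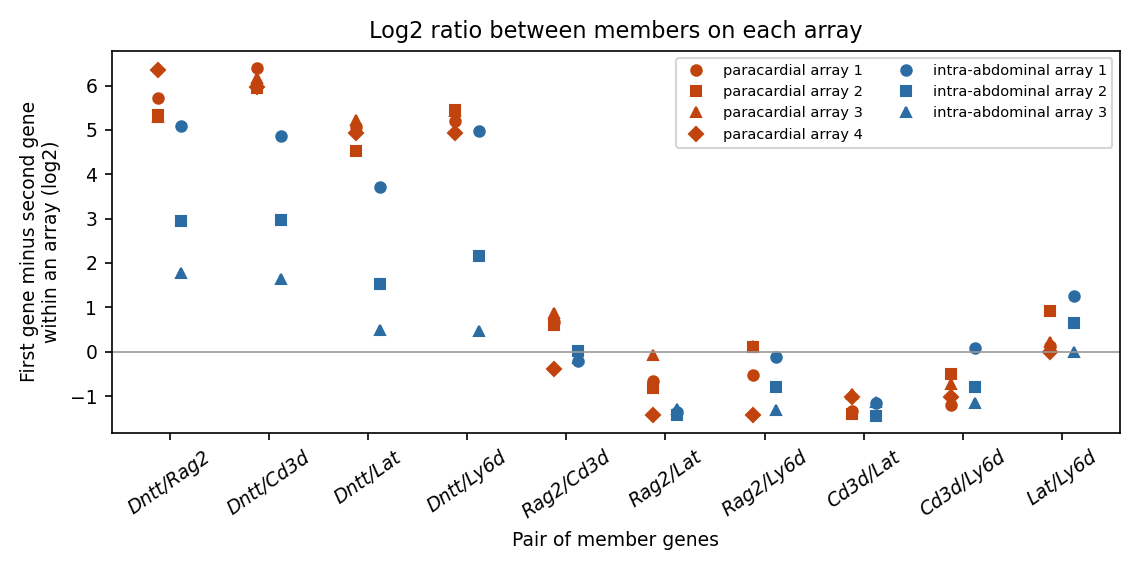
Log2 ratio of the first to the second gene of each of the 10 pairs of members on every paracardial (orange) and intra-abdominal (blue) array. Only the change between depots is comparable, since the probes of different genes are not on one scale. The ratios of Dntt to Rag2, Cd3d and Lat are higher on all paracardial than on all intra-abdominal arrays, and Cd3d to Lat stays between -1.44 and -0.96.

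Among the other genes of receptor recombination only 3 were measured, and 1 of them was called higher, against 6.25% of all genes. All pathway lists were chosen with earlier results of these data known, so their counts are descriptions and not separate support. Hmgb2, a DNA-bending protein that assists the recombinase, was higher in paracardial fat. It read 9.74, 9.17, 10.70 and 11.57 (log2) on the paracardial arrays in number order, and 7.43, 6.35 and 5.61 on the intra-abdominal ones, a difference of 3.83 ± 0.68 (SE) (limma adjusted p = 0.021). Its arrays stood in the same order as those of Rag2. Hmgb2 is also a chromatin protein of dividing cells of many kinds. The end-joining kinase Prkdc (0.0098, adjusted p = 0.985) and the end-joining factor Nhej1 (0.22, 0.687), named after their values were seen, did not pass and belong to a repair pathway active in most cells. The median difference of the 3 genes was 0.22, against 0.13 over all genes. Rag1 was not analysed here.

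None of the 6 other measured genes of the receptor complex and its coreceptors passed the limma test, with 6 of 6 at an unadjusted p under 0.05, against 24.4% of all genes. In all 6 the paracardial arrays lay above the intra-abdominal arrays, against 18.0% of all genes. Their median difference was 2.29. The chains of the coreceptor CD8, which holds the receptor to MHC class I and is carried by immature thymocytes and cytotoxic T cells, had larger differences than Cd3d and a wider spread. Cd8a read 13.98, 12.83, 14.53 and 16.39 on the paracardial arrays in number order and 11.94, 6.87 and 5.55 on the intra-abdominal ones, a difference of 6.32 ± 1.61 (SE) (adjusted p = 0.059). Cd8b1 read 17.28, 16.25, 17.43 and 19.09 and then 15.98, 10.50 and 9.06, a difference of 5.67 ± 1.65 (SE) (0.086). In both genes intra-abdominal array 1 lay within 1 of the lowest paracardial array and far above the other intra-abdominal arrays.

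Ptcra, the surrogate chain that pairs with a new beta chain in immature thymocytes, stood out on 1 array. The 4 paracardial arrays gave 6.06, 6.22, 6.37 and 8.69 in number order and the 3 intra-abdominal arrays 5.45, 5.26 and 5.05 (difference 1.58 ± 0.66, SE, adjusted p = 0.203). On paracardial arrays 1 to 3 it was thus close to the median gene, unlike Dntt and Rag2. Cd3e, Cd3g, Cd247 and Cd4 were not analysed here.

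Of the 10 other measured genes of proximal receptor signalling none passed the limma test, with 6 at an unadjusted p under 0.05 (24.4% over all genes), and their median difference was 1.73. In 6 the paracardial arrays lay above the intra-abdominal arrays, against 18.0% of all genes. Rasgrp1, an exchange factor that turns on RAS in T cells, had the largest difference. On the log2 scale the paracardial arrays, in number order, read 11.70, 11.20, 13.00 and 15.47, while the intra-abdominal ones read 10.42, 6.91 and 6.58 (difference 4.87 ± 1.33, SE, adjusted p = 0.072). Lcp2, the adaptor SLP-76 that works beside LAT and is also made in myeloid cells and platelets, had a difference of 2.94 with overlapping depots (0.130). Zap70, the kinase that phosphorylates LAT, had a difference of 1.33 (0.216), with values of 5.64 to 7.94 in paracardial and 4.76 to 5.56 in intra-abdominal fat. Lck was not analysed here.

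Of the 10 other genes of early lymphoid and thymocyte development 3 were higher, none was lower and 7 did not pass, with a median difference of 1.18. Over all genes 6.25% were higher and 2.91% lower. Mns1, better known from sperm tails and also measured in thymocytes, differed by 2.86 ± 0.64 (SE) (limma adjusted p = 0.041). Cd69, an activation marker that thymocytes gain after receptor engagement, differed by 2.76 ± 0.52 (SE) (0.025). Ccr7, the chemokine receptor that guides T cells to the thymic medulla and lymph nodes, differed by 2.04 ± 0.48 (SE) (0.048). The genes of this list did not share 1 direction. In 5 of the 10 all paracardial arrays lay above the intra-abdominal ones (18.0% over all genes), and in 3 all lay below (8.78%).

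Within the Ly6 family Ly6d was the only one of 8 measured genes that was higher. Over all genes 6.25% were higher and 2.91% lower. Ly6c1, carried by endothelial cells and some leukocytes, was lower in paracardial fat, by -1.79 ± 0.40 (SE) (limma adjusted p = 0.041). Paracardial arrays 1 to 4 gave log2 values of 7.84, 8.25, 8.18 and 8.69, against 9.63, 9.53 and 10.93 on the intra-abdominal arrays 1 to 3. The 6 others did not pass, and the median difference of the 7 genes other than Ly6d was -0.27. Ly6k, the measured gene next to Ly6d in RefSeq order, differed by 0.42 (0.474).

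**Figure D4:**
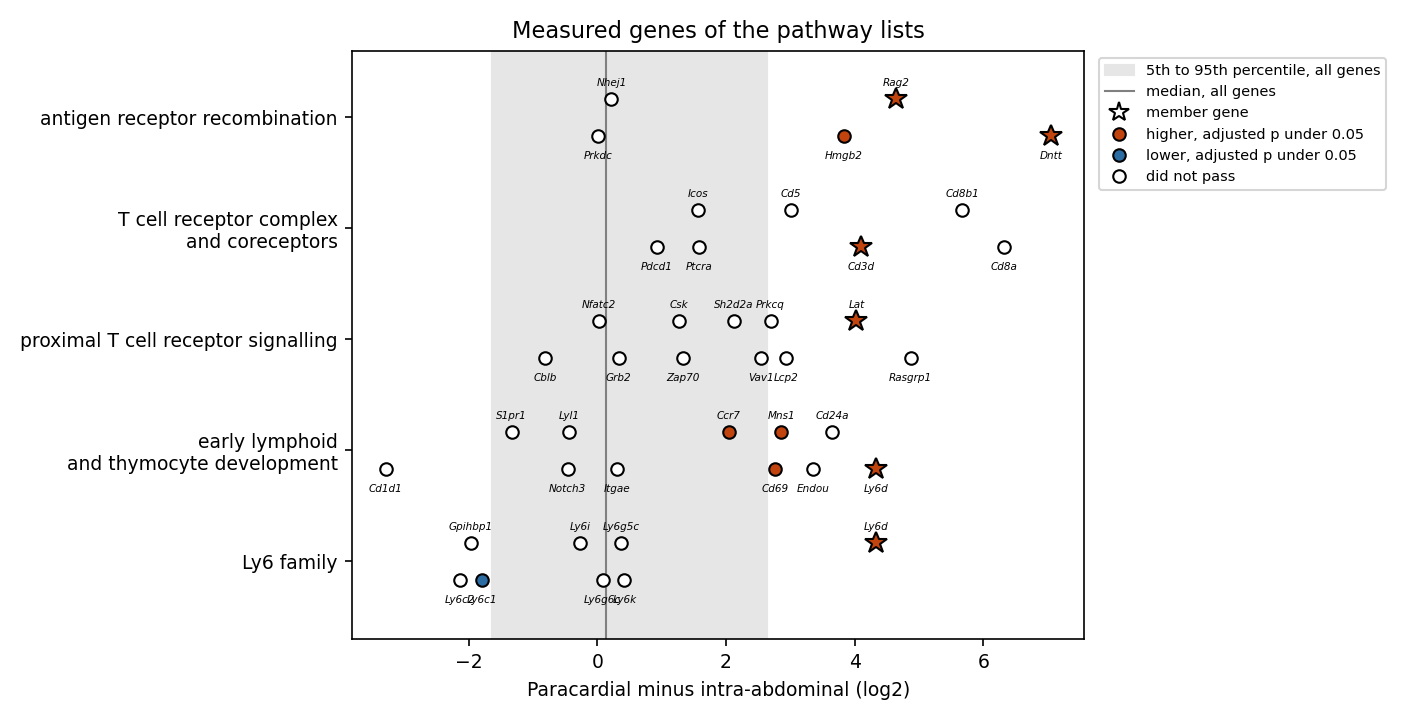
Paracardial minus intra-abdominal difference (log2) of every measured gene of 5 pathway lists, with member genes as stars, genes past the threshold filled (orange higher, blue lower) and the 5th to 95th percentile of all 9294 genes shaded (-1.64 to 2.63). Of the genes that are no members, Hmgb2, Mns1, Cd69 and Ccr7 are filled orange and Ly6c1 blue, while the genes of the receptor complex lie to the right of the median gene without passing.

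The genes next to the members on the chromosomes were compared in the same fit. The nearest measured gene on each side of each member in RefSeq order gave 10 genes, of which none passed the limma test and 2 had an unadjusted p under 0.05. With 6.25% of all genes called higher, 2.91% lower and 24.4% at such a p, 10 genes are too few to set these counts apart from the rest. Their differences ran from -0.37 to 1.87, the latter for Them6 beside Ly6d (adjusted p = 0.072).

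The genes whose values ran most alike with the members over the 7 arrays were named by the highest Pearson r among 5814 genes with an established symbol. For Dntt they were the T cell receptor beta segment Trbv13-2 (r = 0.995), Cd8a (0.994) and Dsp (0.993), which encodes a protein of epithelial cell junctions. For Rag2 they were Ly75 (0.997), an endocytic receptor of thymic epithelium and dendritic cells, the membrane protein gene Itm2a (0.996) and the segment Trbv31 (0.996). For Cd3d they were the segment Trbv3 (0.999), Lat (0.998) and the histone variant gene H2ax (0.997), and for Lat they were Cd3d, Trbv3 and H2ax (0.998, 0.997 and 0.996). For Ly6d they were Psmb11 (0.997), a proteasome subunit of the cortical thymic epithelium, and the segments Trbv26 (0.995) and Trbv1 (0.995).

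High likeness was common, since from 116 genes (for Dntt) to 241 genes (for Ly6d) of the 5814 had an r over 0.95. Of the genes most alike, Ly75 differed by 4.12 (limma adjusted p = 0.024), Itm2a by 4.29 (0.017), Dsp by 4.36 (0.018), H2ax by 4.47 (0.037) and Psmb11 by 5.04 (0.040). Trbv segments resemble each other in sequence, so the segment that gave a signal is uncertain. Trbv31 (5.10, 0.021), Trbv26 (4.10, 0.023) and Trbv1 (4.003, 0.025) passed, while Trbv13-2 (5.23, 0.057) and Trbv3 (4.30, 0.055) did not.

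The mean of the thymic epithelial markers followed the members over the arrays. The mean of the stratified epithelial markers did so between the depots but not within paracardial fat. Of the single thymic epithelial markers only Foxn1, Psmb11, Ly75 and Tbata kept the members' order of arrays. The marker lists, here and below, were chosen with earlier results of these data known, so their counts are not separate support. Of 12 measured thymic epithelial markers 6 were higher in paracardial fat (6.25% over all genes) and none was lower (2.91%). In 11 of 12 every paracardial array lay above every intra-abdominal array (18.0% over all genes). Their mean log2 level was 9.22 to 10.42 on the paracardial and 6.12 to 7.65 on the intra-abdominal arrays, highest there on array 1 as for the members. The abundant keratin Krt5 was among those that were higher (4.42, limma adjusted p = 0.019), and it is a marker of stratified epithelium as well. Within paracardial fat it ran otherwise, with 12.50, 11.98, 11.55 and 11.78 in number order. Of 5 measured markers of stratified epithelium, in which Ly6d is made, 2 were higher, against 6.25% of all genes. Their mean levels were 6.97 to 7.61 in paracardial and 4.99 to 5.90 in intra-abdominal fat. Their mean was lowest on paracardial arrays 3 and 4 (6.97 and 7.06), where the members were highest. Krt5 and Krt14 stand in both lists. The part of these cell types in the differences of the members was not tested.

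Markers of other lymphocytes were few. None of 7 measured B lymphoid markers passed the limma test and 1 had an unadjusted p under 0.05 (24.4% over all genes), with a median difference of 0.59 and mean levels of 5.78 to 7.03 on the paracardial and 5.07 to 5.61 on the intra-abdominal arrays. In 4 of the 7 every paracardial array lay above every intra-abdominal array, against 18.0% of all genes. Jchain had the largest difference of the list (2.54, adjusted p = 0.090). The B cell receptor chain Cd79a had values of 5.71 to 6.56 in paracardial and 5.43 to 5.89 in intra-abdominal fat, near the median gene in both. Jchain and Cd79a were named after their values were seen. Of 2 measured markers of NK and innate lymphoid cells Gzma, a protease of cytotoxic cells, was higher by 3.44 (adjusted p = 0.020). The other did not pass, and over all genes 6.25% were higher. Of the markers listed for thymocytes 5 were measured, of which Dntt and Rag2 passed. One of the 5, Cd1d1, ran the other way, with 5.50 to 7.37 in paracardial and 8.03 to 11.37 in intra-abdominal fat (difference -3.29, 0.058). Cd1d1 is also made by antigen-presenting cells and adipocytes, and it was named after its values were seen. Of the markers listed for mature T cells 4 were measured, of which Cd3d and Lat passed. The others, Cd5 and S1pr1, split. Cd5 differed by 3.01 (limma adjusted p = 0.164), with every paracardial array above every intra-abdominal array. S1pr1 differed by -1.33 (0.088), with every paracardial array below.

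Adipocyte and endothelial markers were lower in paracardial fat, where the members were higher. Of 10 measured adipocyte markers 7 were lower in paracardial fat (2.91% over all genes) and none was higher (6.25%). Their mean levels were up to 6.12 on paracardial arrays 1 and 2, and 9.52 and 10.20 on the other 2. On the intra-abdominal arrays they were 14.09 to 15.48. On paracardial arrays 1 and 2 only 4 and 5 of the 10 lay above the median gene, so the labelled tissue was weakly marked there. The adiponectin gene Adipoq, which defines adipocytes and was named after its values were seen, was at 5.18 and 5.53 on these arrays. Of 5 endothelial markers 3 were lower (2.91% over all genes), with mean levels of 5.32 to 7.06 and 9.004 to 11.35. Among 8 macrophage markers none passed the limma threshold and 1 had an unadjusted p under 0.05 (24.4% over all genes). Their means were 6.57 to 8.87 and 7.68 to 10.32. Within intra-abdominal fat the adipocyte means were 14.09, 14.47 and 15.48 on arrays 1, 2 and 3 and the endothelial means 9.004, 9.44 and 11.35, which is the reverse of the order of all 5 members. Within paracardial fat arrays 3 and 4 were the highest for the means of the adipocyte and endothelial markers and for the members. The part of the tissue's makeup in these differences was not tested.

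**Figure D5:**
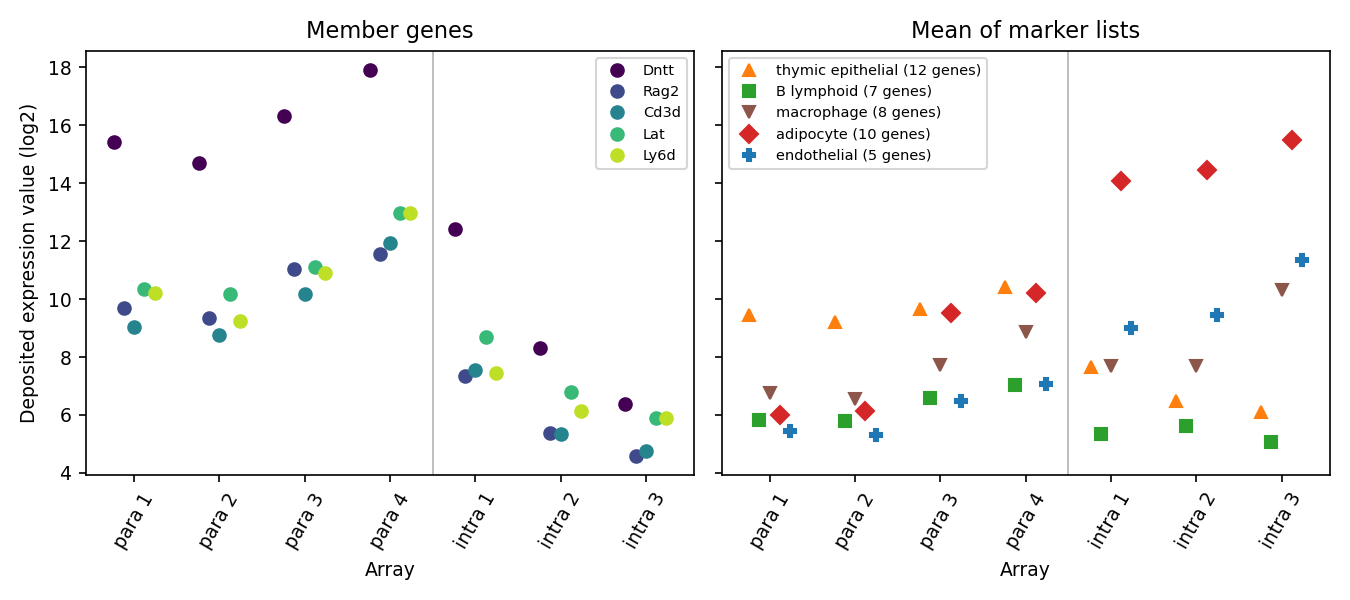
Left, deposited log2 value of the 5 member genes on paracardial (para) and intra-abdominal (intra) arrays. Right, mean log2 level of 5 marker lists on the same arrays, with thymic epithelial markers between 9.22 and 10.42 on paracardial arrays and adipocyte markers between 14.09 and 15.48 on intra-abdominal arrays.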

How the data were processed

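The deposited table holds a log2 value for every probe on every array, and per the submitters' processing notes the authors used RMA and Affymetrix Expression Console. Their versions, the background step and the build were not given in the sources used here. Scanner files were not used here, so signal over background is unknown. The ceiling near 19.8 to 19.9 leaves scale and centring uncertain, and precision is limited by the number of arrays. Of 11949 probes, 9352 had 1 symbol, 522 several and 2075 none. Symbols of 5789 probes were matched to RefSeq (GRCm38.p6, names only) by Entrez identifier, which changed 188. The probe with the highest mean was kept for 52 genes with several, leaving 9294 genes, and no dim gene was dropped. Among all probes 635 shared every value with another probe and were not merged.

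Paracardial minus intra-abdominal differences were fitted in R 4.3.3 with limma 3.58.1 (lmFit, eBayes, two-sided, 5 residual and 1.68 prior degrees of freedom) over all 7 arrays without covariates, adjusted by Benjamini-Hochberg over all genes at 0.05. Other steps used scipy 1.17.1, numpy 2.4.6 and pandas 2.3.3 under Python 3.11.15, with matplotlib 3.10.9 for figures. The fit was tested on simulated data. The members, lists, markers and tests were chosen with earlier results of these data known. Named were the members, 13 direct partners where measured, up to 4 other genes past the threshold per pathway list or else the largest, and the 3 genes with the highest r to each member, leaving out unnamed gene models and olfactory and vomeronasal receptors. Replicate numbers are shared between depots, but the deviations of same-numbered arrays correlated at 0.048, 0.047 and -0.50, so the numbers were not taken as pairs. Arrays of different numbers correlated at -0.38 to 0.49. Deviations from the means of so few arrays constrain each other, so this check cannot exclude pairing. Alternatives were filters on dim genes, other scalings and fits, all probes, and arrays left out. Those by array ceiling and without paracardial arrays 1 and 2 were added after the values were seen.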

Additional observations from a re-analysis of the deposited data

Results flagged for a closer look

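On 2 of the 26 genes named by the rule, the value on paracardial array 4 stood apart from the other 3 paracardial arrays, by a gap over range above Dixon's 95% critical value for 4 samples. Ptcra was at 8.69 on that array and at 6.06 to 6.37 on the others (gap over range 0.88). Mns1 was at 10.59 there and at 8.33 to 8.63 on the others (0.865). Chance flags about 1 in 20 groups, and none of the 5 member genes was among them, although array 4 was the highest paracardial array for each.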

How the results depend on the processing

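Each of the 5 differences stayed positive in all 20 alternatives, which the lack of overlap largely fixes. With each array left out they ran from 5.72 to 8.75 for Dntt, 4.06 to 5.44 for Rag2, 3.44 to 4.93 for Cd3d, 3.41 to 4.82 for Lat and 3.62 to 4.87 for Ly6d, and the counts of all genes ran from 114 to 569 higher and 62 to 274 lower. With the replicate block, which leaves out the unpaired paracardial array 4 in effect, the differences were 6.45, 4.27, 3.44, 3.42 and 3.62 in that order, none passed (adjusted p 0.073 to 0.149), and limma called 0 genes higher and 0 lower over the whole table (2134 at an unadjusted p under 0.05). Over the 5 arrays of the lower ceiling they were 5.12, 3.69, 2.87, 2.80 and 3.32, and without paracardial arrays 1 and 2 together 8.08, 5.53, 5.18, 4.92 and 5.44, with 0 higher and 1 lower gene (limma, 1751 at an unadjusted p under 0.05); none of the 5 passed in either. With all probes adjusted together Cd3d (4.09) had an adjusted p of 0.055. The count of higher genes was 2235 with array weights, whose estimation stopped before it converged, and 1081 with the array set as a blocking factor. That of lower genes was 1379 and 573 there, 474 after quantile normalization was applied again and 571 after cyclic loess. All 5 members passed with these 3 scalings (quantile, cyclic loess and centring on medians), both filters on dim genes, trend and robust fitting, array weights, the mean over probes and the blocking by array set. The median difference over all genes, 0.13 as deposited, was 0.0057 after quantile normalization and -0.024 after centring. The causes of these shifts were not tested.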
